A study of Mus musculus with 18 samples.

Results

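A set of 7 genes outside the interferon response, Dcx, Zdbf2, Kcnk2, Kif1a, Lgr6, Gata3 and Cd28, was followed through 18 RNA-seq libraries of C2C12 myotubes. The genes were picked by name because they differed between siErk3 and siNtc in these same libraries, so the siErk3 values below are a description and carry no test. They are 7 of the 55414 genes in the count table, and all 7 are among the 21772 with at least 10 counts in total. C2C12 is an immortalized mouse myoblast line whose cells fuse into multinucleated myotubes when serum is reduced. The cells carried a non-targeting siRNA pool (siNtc, spelled siNTC in the labels), a pool against Erk3 (siErk3) or a pool against Mk5 (siMk5), and after differentiation they spent 16 h either in vehicle (BSA) or in 0.5 mM palmitic acid bound to BSA (PA). These 6 groups of 3 libraries share the cell line, the transfection reagent and the BSA carrier. Silencing with a pool lowers a transcript without removing it. The sources do not say if replicate libraries came from separate cultures, so p-values measure only the spread between these samples, which may be technical.

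Erk3 (gene Mapk6) is an atypical MAP kinase without the usual activation loop motif, and Mk5 (gene Mapkapk5) is a protein kinase that binds and is activated by it. Both are studied in muscle for their part in fuel use, and palmitic acid, a saturated fatty acid, is used to model lipid overload. The genes described here have a range of functions. Dcx and Kif1a act on microtubules, the former as a microtubule-associated protein of migrating neurons and the latter as a kinesin motor that carries synaptic vesicle precursors. Kcnk2, Lgr6 and Cd28 act at the plasma membrane as a two-pore domain potassium channel (TREK-1), a receptor for R-spondins that strengthens Wnt signaling, and the co-stimulatory receptor of T cells. Gata3 is a zinc finger transcription factor known from T helper and luminal epithelial cells, and Zdbf2 is an imprinted gene read from the paternal allele.

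The targeted transcripts were lower in the libraries labeled for their silencing. Mapk6 was at 57.4 ± 2.64 CPM (read pairs per gene scaled to a common library size by TMM, mean ± SD, n = 3) in siErk3 BSA against 132 ± 3.18 in siNtc BSA, and at 120 ± 11.4 in siErk3 PA against 232 ± 14.7 in siNtc PA. Mapkapk5 was scarce, at 1.63 ± 0.42 CPM in siMk5 BSA against 2.46 ± 0.13 in siNtc BSA and at 2.31 ± 0.13 in siMk5 PA against 3.24 ± 0.70 in siNtc PA, with no overlap between libraries in either medium but an FDR of 0.469 in both by edgeR's quasi-likelihood test. Of the exonic bases of Mapkapk5, 56.4% are shared with a second annotated gene on the same strand, Gm42878. The libraries held 13041979 to 28496727 assigned read pairs, the fewest in siNtc BSA replicate 1. Of all counts, the 18S ribosomal RNA gene took 8.39% to 12.9% in siMk5 BSA, above every other library, and 1.497% to 2.96% in siErk3 BSA, while the remaining groups lay between 1.71% and 7.17%.

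The 7 genes are spread over few chromosomes. On GRCm39, Cd28 (chr1:60755959-60812518, plus strand), Zdbf2 (chr1:63312424-63353735, plus strand), Kif1a (chr1:92943186-93029673, minus strand), Lgr6 (chr1:134911039-135033014, minus strand) and Kcnk2 (chr1:188940127-189134470, minus strand) lie on chromosome 1. Dcx is at chrX:142638838-142716307 and Gata3 at chr2:9861889-9894845, both on the minus strand. Chromosome 1 therefore holds 5 of the 7, or 71.4%, and 6.82% of all tested genes, which describes a hand-picked list and was not tested. All are protein-coding, and counts are over exons. Only Gata3 shares exonic bases with another gene on its own strand, 1.94% with Gata3un. On the opposite strand A430027H14Rik covers 12.2% of the exonic bases of Kcnk2, Gm13256 3.90% of those of Gata3 and Gm56068 0.782% of those of Zdbf2, and the strand-specific counting keeps those reads apart.

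The sequences just upstream of transcription starts are shown for the gene with the greatest siErk3 difference, Dcx, and for Kcnk2, Kif1a, Gata3 and Lgr6, which like Dcx differed between PA and BSA with each siRNA. They come from the RefSeq promoter table of GRCm38.p6, where 6 of the 7 genes were matched and Cd28 was not, and were located in GRCm39 by exact match. Each runs 5′ to 3′ on the gene's own strand, ends where annotated exon sequence of that gene begins or at the start site, and has matches to the searched motifs in capitals.
Dcx, chrX:142716308-142716465, minus strand: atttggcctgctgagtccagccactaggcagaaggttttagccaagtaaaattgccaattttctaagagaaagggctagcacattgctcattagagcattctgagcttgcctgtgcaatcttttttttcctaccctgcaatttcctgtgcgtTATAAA
Kcnk2, chr1:189076390-189076639, minus strand: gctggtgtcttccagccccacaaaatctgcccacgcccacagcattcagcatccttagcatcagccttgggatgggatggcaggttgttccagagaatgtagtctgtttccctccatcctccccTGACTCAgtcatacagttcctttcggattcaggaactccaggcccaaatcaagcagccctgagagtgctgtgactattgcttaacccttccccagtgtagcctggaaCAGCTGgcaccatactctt
Kif1a, chr1:93029753-93029846, minus strand: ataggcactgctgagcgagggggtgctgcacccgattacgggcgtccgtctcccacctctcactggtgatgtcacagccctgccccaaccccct
Gata3, chr2:9883560-9883661, minus strand: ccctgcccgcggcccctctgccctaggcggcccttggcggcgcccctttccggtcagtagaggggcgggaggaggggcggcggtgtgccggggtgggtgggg
Lgr6, chr1:135033101-135033264, minus strand: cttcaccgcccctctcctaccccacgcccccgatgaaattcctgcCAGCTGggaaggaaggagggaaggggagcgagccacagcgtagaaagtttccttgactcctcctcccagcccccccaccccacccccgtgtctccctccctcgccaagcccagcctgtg
Over the whole 250 bases upstream, searched on both strands, the motifs were the myogenic E-box CAGCTG, the AP-1 motif TGANTCA, the GATA motif AGATAA, the interferon response element (GAAA, any 2 bases, GAAA), the cyclic AMP response element TGACGTCA, the left part of the RE1 element TTCAGCACC and the TATA motif TATAAA, the core promoter element. The E-box CAGCTG was present in 3 of the 6 promoters, at -19 in Kcnk2, -205 in Lgr6 and, outside the stretch shown, -96 in Kif1a, against 13% of 32851 mouse promoters of this length. TGANTCA was found once, at -126 in Kcnk2 (6.75% of all promoters), TATAAA once, at -98 in Dcx (12.4%), and TGACGTCA once, at -59 in Zdbf2 (1.55%). Positions count from 1 RefSeq start per gene, where the promoter table has 4 starts for Kcnk2 and 2 each for Dcx, Kif1a and Zdbf2. Among the starts near that of the canonical transcript, the most upstream was used and not the nearest. The start used lies 333 bp from that of the canonical transcript in Kcnk2 and 84 bp from it in Dcx. Another start lies 152 bp from it in Kcnk2 and 11 bp from it in Dcx, so positions depend on this choice. The interferon response element, AGATAA and TTCAGCACC were in 0 of the 6, against 2.98%, 9.99% and 0.301% of all promoters. The GC content of the 250 bases was 74.4% in Zdbf2, 70% in Gata3, 69.2% in Kif1a, 65.2% in Lgr6, 53.2% in Kcnk2 and 41.6% in Dcx, where the median of all promoters is 52.4%. Annotated exons of the gene itself cover 156 of the 250 bases in Kif1a, 148 in Gata3, 92 in Dcx, 86 in Lgr6, 65 in Zdbf2 and 0 in Kcnk2. The E-box of Kif1a and the TGACGTCA of Zdbf2 lie within such exon sequence. A match describes these letters only.

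All 7 were low to moderate in control myotubes. Per kilobase of exon, so that genes can be compared, the siNtc BSA level was 1.22 CPM for Kif1a, 1.09 for Gata3, 1.05 for Cd28, 1.01 for Kcnk2, 0.853 for Lgr6, 0.337 for Dcx and 0.0652 for Zdbf2. Between 18.3% and 48.9% of tested genes were lower on this scale. Zdbf2 rested on 8 to 57 read pairs per library and is the least precisely counted, whereas Kif1a rested on 164 to 889. In bulk RNA, a lower level in every cell and fewer cells that make the transcript cannot be told apart.

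**Figure D1:**
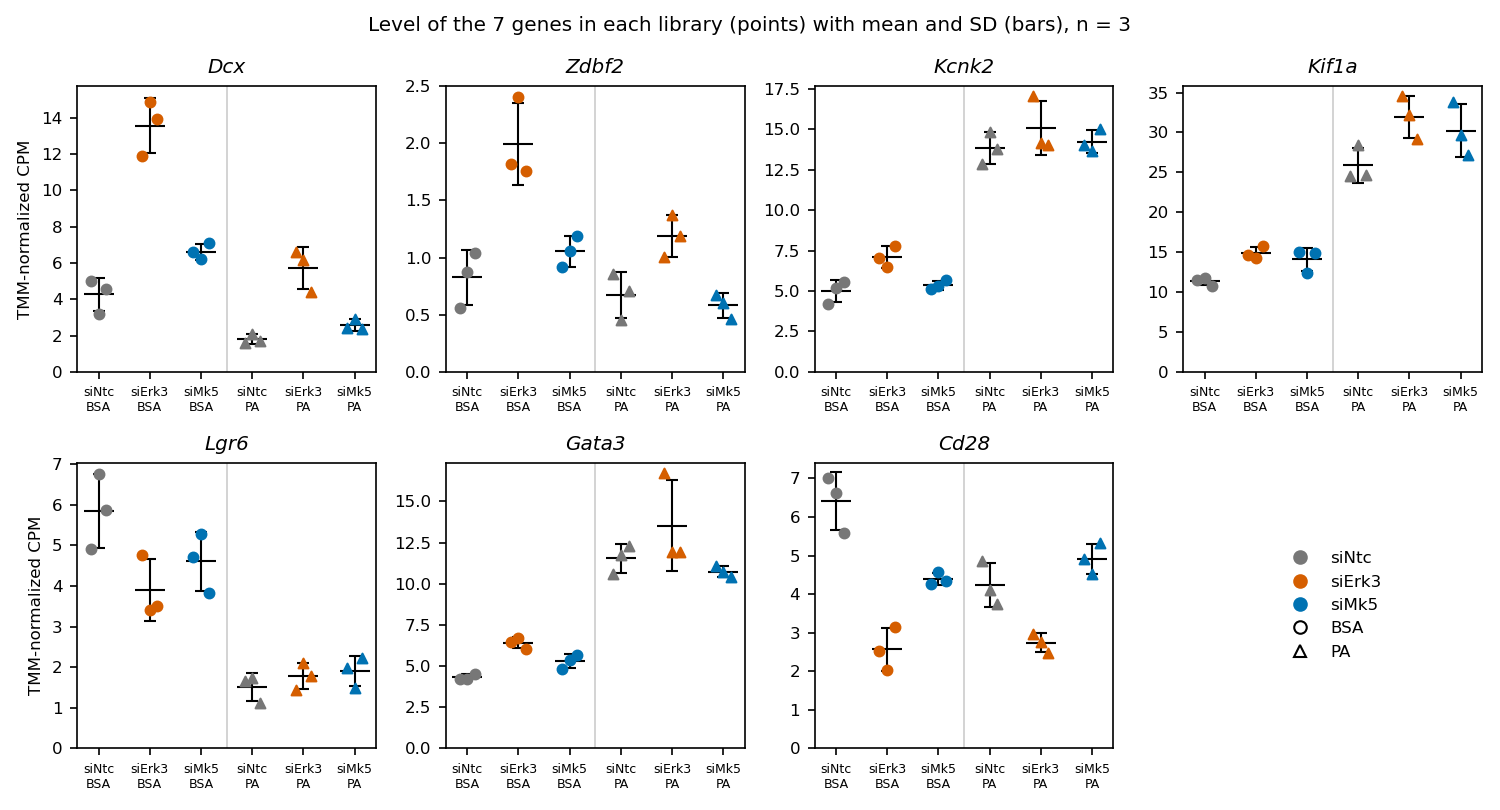
TMM-normalized CPM (y axis) of each of the 7 genes in every library (points, circles for BSA and triangles for PA, colored by siRNA), with the group mean and SD as bars, n = 3 per group. Dcx reaches 11.9 to 14.8 CPM in siErk3 BSA and no more than 7.07 elsewhere, while Kcnk2, Kif1a and Gata3 are split by medium and Lgr6 is split the other way.

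Dcx, doublecortin, had the greatest difference with Erk3 silencing and a graded order over the 6 groups. It stood at 4.99, 3.21 and 4.59 CPM in siNtc BSA, at 11.9, 14.8 and 13.9 in siErk3 BSA and at 6.58, 6.19 and 7.07 in siMk5 BSA. The 3 groups did not overlap in BSA, with siMk5 between the others. In PA the values were 1.57, 2.10 and 1.72 CPM in siNtc, 6.61, 6.15 and 4.42 in siErk3 and 2.43, 2.94 and 2.37 in siMk5, again without overlap. Group means therefore ran from 13.5 ± 1.52 CPM (SD, n = 3) in siErk3 BSA through siMk5 BSA (6.61 ± 0.44), siErk3 PA (5.73 ± 1.16) and siNtc BSA (4.26 ± 0.93) to siMk5 PA (2.58 ± 0.31) and siNtc PA (1.80 ± 0.27). Of these neighbors, siErk3 PA overlapped with both siMk5 BSA and siNtc BSA.

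Kif1a, the other microtubule gene, differed mainly between media. It was at 11.5, 11.7 and 10.8 CPM in siNtc BSA, at 14.6, 14.3 and 15.7 in siErk3 BSA and at 14.96, 12.4 and 14.9 in siMk5 BSA. Both silenced groups lay above siNtc and overlapped with each other. In PA it was at 24.6, 28.4 and 24.6 CPM in siNtc, at 34.5, 32.2 and 29.2 in siErk3 and at 33.8, 29.7 and 27.2 in siMk5. The siErk3 libraries were above those of siNtc, and siMk5 overlapped with both.

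Among the membrane proteins, Kcnk2 stood higher in siErk3 in BSA, while in PA the groups overlapped. The potassium channel was at 4.21, 5.21 and 5.53 CPM in siNtc BSA, at 7.01, 6.45 and 7.80 in siErk3 BSA and at 5.10, 5.28 and 5.68 in siMk5 BSA, so siErk3 stood apart and the other two overlapped. The PA values were 12.9, 14.8 and 13.8 CPM in siNtc, 17.04, 14.2 and 14.04 in siErk3 and 14.02, 13.7 and 15.015 in siMk5. Every PA library exceeded every BSA library.

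Lgr6 went the other way in BSA, by a narrow gap. Its levels were 4.92, 6.75 and 5.86 CPM in siNtc BSA, 4.77, 3.42 and 3.51 in siErk3 BSA and 4.71, 5.28 and 3.82 in siMk5 BSA. The lowest siNtc value lay just above the highest siErk3 value, and siMk5 overlapped with both. In PA the R-spondin receptor was at 1.66, 1.73 and 1.11 CPM in siNtc, 1.45, 2.10 and 1.79 in siErk3 and 1.98, 1.49 and 2.22 in siMk5, with overlap throughout and all values below those in BSA.

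Cd28 was the one gene with lower values in siErk3 in both media. It was at 7.02, 6.63 and 5.58 CPM in siNtc BSA, 2.54, 2.02 and 3.15 in siErk3 BSA and 4.27, 4.58 and 4.33 in siMk5 BSA, with no overlap between the 3. In PA it was at 4.86, 4.10 and 3.74 CPM in siNtc, 2.98, 2.75 and 2.48 in siErk3 and 4.90, 4.52 and 5.31 in siMk5, where siErk3 remained the lowest and the other groups overlapped. The order of means was siNtc BSA (6.41 ± 0.75 CPM, SD, n = 3), siMk5 PA (4.91 ± 0.40), siMk5 BSA (4.396 ± 0.16), siNtc PA (4.23 ± 0.57), siErk3 PA (2.74 ± 0.25) and siErk3 BSA (2.57 ± 0.56). The neighbors siMk5 PA, siMk5 BSA and siNtc PA overlapped in turn, as did the siErk3 groups.

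The nuclear and imprinted genes differed in how they answered the medium. Gata3 was at 4.21, 4.21 and 4.54 CPM in siNtc BSA, 6.46, 6.71 and 6.05 in siErk3 BSA and 4.84, 5.38 and 5.68 in siMk5 BSA, 3 groups without overlap. In PA it was at 10.6, 11.8 and 12.3 CPM in siNtc, 16.7, 11.9 and 11.9 in siErk3 and 11.1, 10.7 and 10.4 in siMk5. One siErk3 library, replicate 1, was far above the other two there, and siErk3 overlapped with siNtc but not with siMk5. Zdbf2 was at 0.562, 0.875 and 1.04 CPM in siNtc BSA, 1.82, 2.40 and 1.75 in siErk3 BSA and 0.916, 1.06 and 1.19 in siMk5 BSA. Its PA values were 0.855, 0.456 and 0.707 CPM in siNtc, 1.01, 1.38 and 1.19 in siErk3 and 0.674, 0.606 and 0.464 in siMk5, so siErk3 was the highest group in each medium and the others overlapped.

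In BSA, siErk3 differed from siNtc by a log2 fold change of 1.70 ± 0.14 (SE) in Dcx, 1.21 ± 0.25 in Zdbf2, 0.56 ± 0.13 in Gata3, 0.49 ± 0.12 in Kcnk2 and 0.39 ± 0.10 in Kif1a, and by -1.29 ± 0.14 in Cd28 and -0.61 ± 0.16 in Lgr6. All 7 met the criteria of an FDR below 0.05 and a fold change above 1.3, as did 0.785% of all tested genes. This contrast is taken as the one that chose them, so nothing is read from the count. Kif1a was the nearest to the fold criterion, at 1.31-fold. The groups did not overlap in any of the 7, which holds for 17.4% of tested genes. Leaving out any 1 of the 6 libraries brought the number that met the criteria to 3 or 4, and adding the 18S share to the fit as a term brought it to 2. In PA the log2 fold changes were 1.68 ± 0.18 in Dcx, 0.83 ± 0.28 in Zdbf2, 0.31 ± 0.08 in Kif1a, 0.24 ± 0.23 in Lgr6, 0.23 ± 0.10 in Gata3, 0.12 ± 0.09 in Kcnk2 and -0.63 ± 0.15 in Cd28. Dcx and Cd28 met the criteria in this medium, beside 0.556% of tested genes, and Dcx, Zdbf2, Kif1a and Cd28 did not overlap, beside 12.1%. Without siNtc PA replicate 1, siErk3 PA replicate 2 or siErk3 PA replicate 3, or with only these groups fitted, the number was 1.

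The direct comparison of siErk3 with siMk5, asked for in both media, uses the same siErk3 libraries that led to the choice. It is likewise a description, also where the criteria are named. In BSA, Dcx was higher in siErk3 by a log2 fold change of 1.04 (95% interval 0.78 to 1.29), Zdbf2 by 0.92 (0.44 to 1.40), Kcnk2 by 0.41 (0.18 to 0.65) and Gata3 by 0.28 (0.01 to 0.54), and Cd28 was lower at -0.76 (-1.07 to -0.45). Those 5 did not overlap, beside 15.3% of tested genes. Kif1a, at 0.08 (-0.11 to 0.27), and Lgr6, at -0.25 (-0.58 to 0.09), overlapped, and their intervals leave room for differences of either sign. In PA the values were 1.16 (0.82 to 1.4999) for Dcx, 1.03 (0.44 to 1.61) for Zdbf2, 0.33 (0.12 to 0.54) for Gata3 and -0.84 (-1.14 to -0.53) for Cd28, the 4 without overlap, beside 14.7% of tested genes. Kcnk2, Kif1a and Lgr6 were at 0.08 (-0.10 to 0.27), 0.08 (-0.08 to 0.24) and -0.07 (-0.53 to 0.38). Dcx and Cd28 met the criteria in each medium, where 0.588% of tested genes did so in BSA and 1.03% in PA. In BSA this number was 1 without siErk3 BSA replicate 2, 4 with every gene that has a count kept and 0 with the 18S share as a term, where Dcx was at 0.36, Gata3 at 0.09, Kif1a at -0.07 and Lgr6 at 0.61.

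Mk5 silencing was compared with the siNtc libraries taken to have had part in the choice, so a chance deviation in them enters this comparison too. The criteria and the unadjusted p (edgeR) are given here as a description and not as support. In BSA, 0 of the 7 met the criteria by edgeR or by DESeq2, where 0.0643% of tested genes did so by edgeR, and 4 had an unadjusted p below 0.05, where 6.89% of tested genes did. Dcx was at a log2 fold change of 0.67 (95% interval 0.35 to 0.98), Kif1a at 0.32 (0.11 to 0.52), Zdbf2 at 0.29 (-0.29 to 0.87), Gata3 at 0.29 (-0.0049 to 0.58) and Kcnk2 at 0.08 (-0.18 to 0.34). Cd28 was at -0.54 (-0.81 to -0.26) and Lgr6 at -0.36 (-0.69 to -0.04). All 3 siMk5 libraries were above the 3 siNtc libraries in Dcx, Kif1a and Gata3 and below them in Cd28, beside 12.3% of tested genes whose groups do not overlap. With every gene that has a count kept in the fit, Dcx and Cd28 met the criteria, and with the 18S share as a term Dcx did. In PA again 0 of the 7 met them by either tool, where 0.547% of tested genes did so by edgeR, and 2 had an unadjusted p below 0.05, where 6.79% of tested genes did. These were Dcx at 0.52 (0.09 to 0.95) and Kif1a at 0.23 (0.06 to 0.39). Dcx was also the one gene without overlap, beside 12% of tested genes. The other 5 had intervals that span 0, which does not show that the levels were alike.

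**Figure D2:**
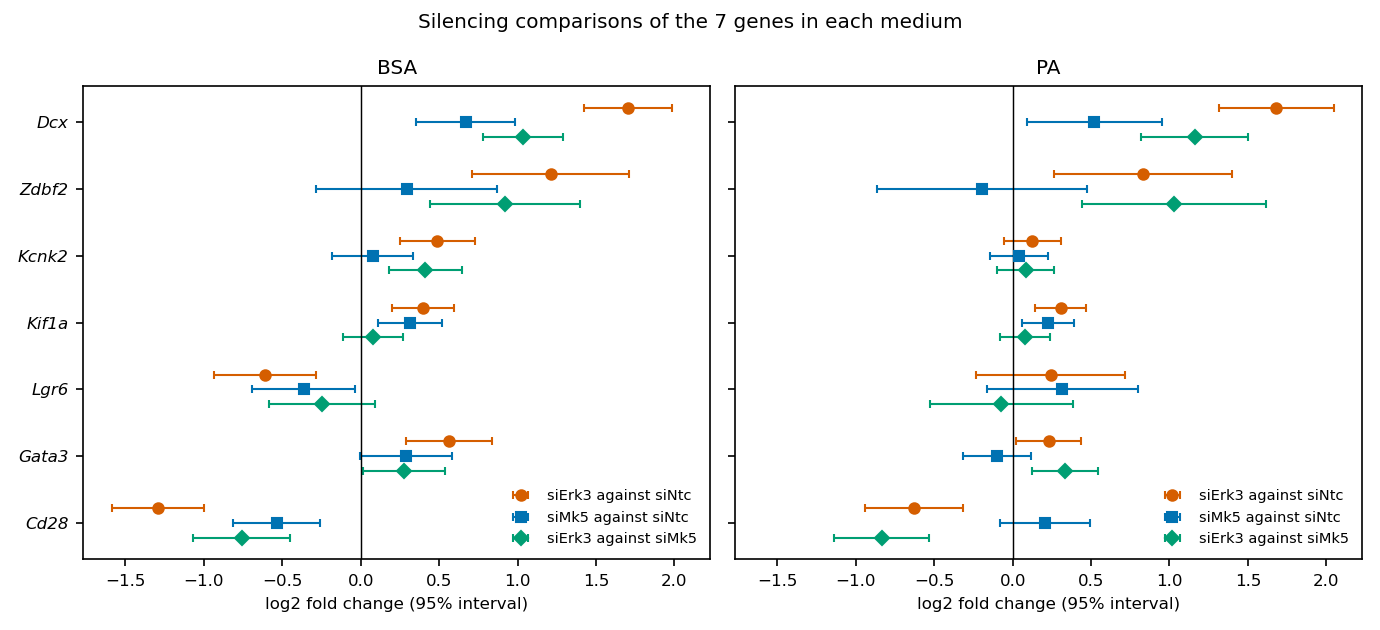
Log2 fold change (x axis) with its 95% interval for each of the 7 genes in BSA (left) and PA (right), for siErk3 against siNtc (orange circles), siMk5 against siNtc (blue squares) and siErk3 against siMk5 (green diamonds). The comparisons share libraries. The siErk3 values of Dcx are 1.70 in BSA and 1.68 in PA, while Lgr6 is at -0.61 in BSA and 0.24 in PA.

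Palmitic acid moved most of the 7 genes. In siMk5 myotubes, whose libraries were taken to have had no part in the choice, 6 of 7 were called, beside 29.7% of tested genes. The BSA and PA libraries of these 6 did not overlap, as in 51.9% of tested genes. How the choice was made is not stated, so the FDRs below depend on that assumption. Kcnk2 rose by a log2 fold change of 1.41 ± 0.11 (SE, FDR 1.34e-12, edgeR), Kif1a by 1.10 ± 0.09 (FDR 4.22e-12) and Gata3 by 1.02 ± 0.12 (FDR 1.86e-08). Dcx fell, at -1.35 ± 0.17 (FDR 3.52e-08), as did Lgr6, at -1.29 ± 0.19 (FDR 1.32e-06), and Zdbf2, at -0.83 ± 0.30 (FDR 0.0241). The Zdbf2 call rests on few reads and was lost without siMk5 BSA replicate 2, siMk5 BSA replicate 3 or siMk5 PA replicate 3. Cd28 was at 0.16 ± 0.14 (FDR 0.397). With the 18S share as a term Lgr6 was at -0.75 and still called, and Zdbf2 was not.

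For the siNtc and siErk3 libraries, taken to have had part in the choice, the same comparison is a description only. In each, 6 of 7 met the criteria, beside 30.6% and 32.1% of tested genes, and 6 of 7 did not overlap, beside 51.3% and 53.9%. The log2 fold changes in siNtc and in siErk3 were 1.45 ± 0.11 (SE) and 1.08 ± 0.10 for Kcnk2, 1.19 ± 0.09 and 1.10 ± 0.08 for Kif1a, and 1.41 ± 0.13 and 1.08 ± 0.11 for Gata3. They were -1.21 ± 0.19 and -1.23 ± 0.12 for Dcx, and -1.97 ± 0.19 and -1.11 ± 0.19 for Lgr6. Zdbf2 met the criteria in siErk3, at -0.72 ± 0.22, though not without siErk3 BSA replicate 2, and its value in siNtc was -0.34 ± 0.31. Cd28 met them in siNtc, at -0.58 ± 0.14, and was at 0.08 ± 0.16 in siErk3. The difference between the PA responses of siMk5 and siNtc (interaction) rests on the siNtc libraries as well and is likewise a description. It met the criteria in 0 of the 7 by edgeR or DESeq2, where 0.211% of tested genes did so by edgeR, and 3 had an unadjusted p below 0.05, where 7.43% of tested genes did. For Cd28 it was 0.74 ± 0.19, for Lgr6 0.68 ± 0.28 and for Gata3 -0.39 ± 0.18. Of the alternatives run, Cd28 met the criteria when every gene with a count was kept, and the siNtc BSA level of 6.41 CPM that it starts from is part of what made Cd28 a member. With the 18S share as a term Lgr6 was at 1.29 and Dcx went from -0.15 to -0.67.

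**Figure D3:**
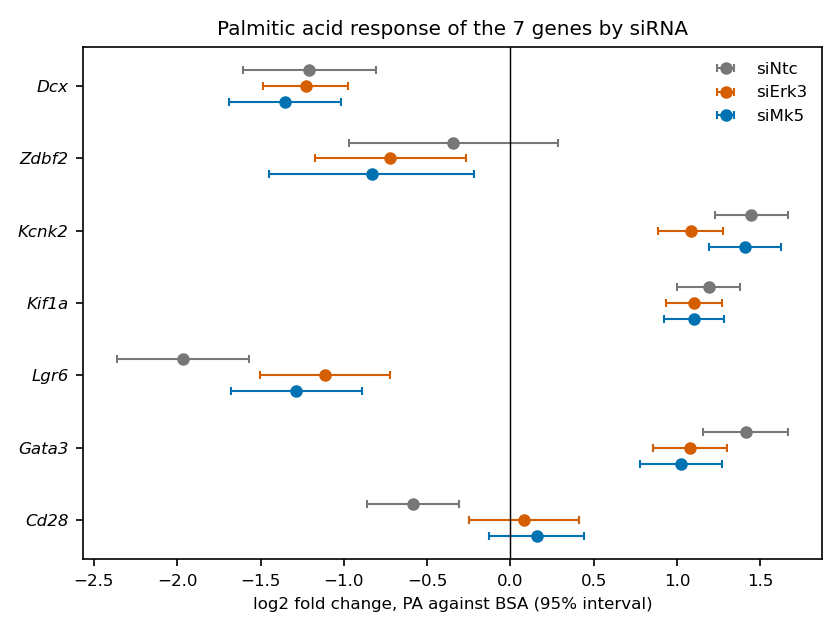
Log2 fold change of PA against BSA (x axis) with its 95% interval for each of the 7 genes in siNtc (gray), siErk3 (orange) and siMk5 (blue) myotubes. Kcnk2, Kif1a and Gata3 lie between 1.02 and 1.45 with each siRNA, Dcx between -1.35 and -1.21 and Lgr6 between -1.97 and -1.11, and Cd28 is below 0 in siNtc alone.

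None of the 7 belongs to the list of interferon-stimulated genes, of which 49 were tested, and their values were set beside it. In siErk3 BSA edgeR called 35 of the 49 higher (median log2 fold change 0.93), and in siErk3 PA it called 17 (median 0.33), where the medians over all tested genes were 0.0188 and -0.00367. DESeq2 called 37 and 10. Dcx kept nearly the same value in both media. In siMk5 BSA 0 of the 49 were called by edgeR and by DESeq2, 1 had an unadjusted p below 0.05, and the median was 0.00266, while in siMk5 PA 45 were called lower with a median of -0.83. None of the 7 met the criteria in that last comparison, and their log2 fold changes there ran from -0.20 in Zdbf2 to 0.52 in Dcx. Palmitic acid raised 48 of the 49 in siMk5, with a median of 1.96, where 15.1% of all tested genes rose and 14.6% fell, and the 7 genes divided into 3 higher and 3 lower.

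**Figure D4:**
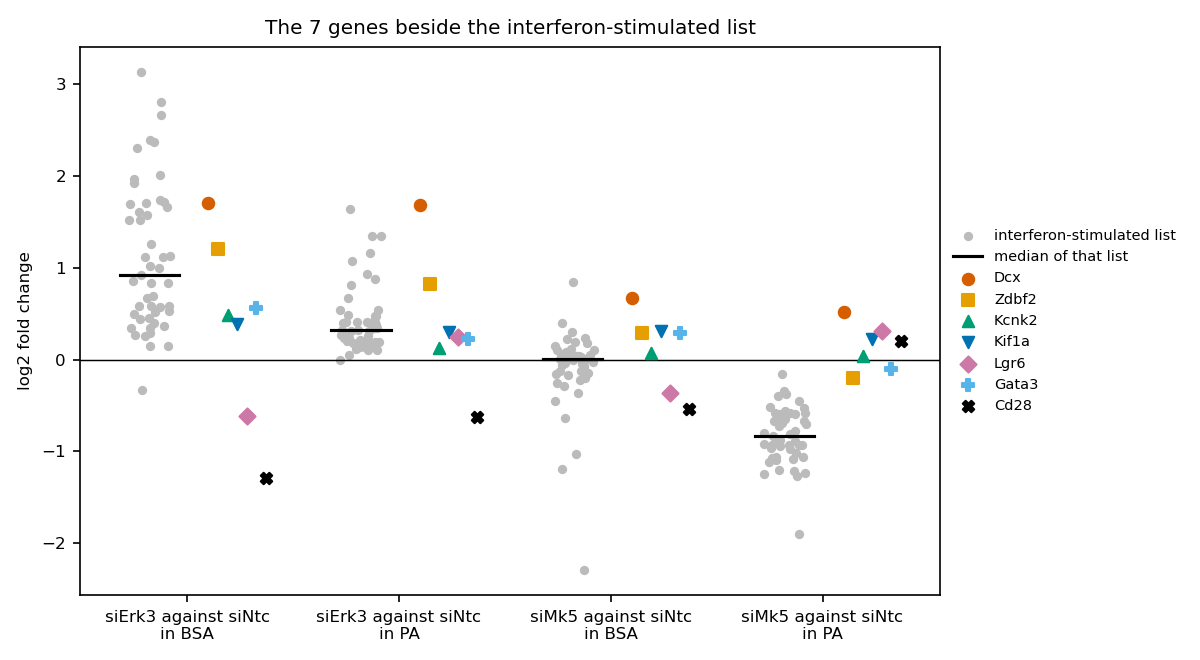
Log2 fold change (y axis) of the 49 tested interferon-stimulated genes (gray points, with their median as a black line) and of the 7 genes (colored symbols) in the 4 comparisons with siNtc. In siMk5 PA the gray median is at -0.83 and the 7 genes lie between -0.20 and 0.52.

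The relatives and partners of each gene were read from lists that leave the 7 out. Among 23 tested genes of the neuronal microtubule and axonal transport list, 0 were called in any of the 6 comparisons between siRNAs by edgeR or by DESeq2, and 2 to 5 had an unadjusted p below 0.05. Their median log2 fold change was 0.03 in siErk3 BSA and -0.04 in siErk3 PA. These include Dclk1, the closest relative of Dcx, at 646 ± 27.1 CPM (SD, n = 3) in siNtc BSA and 684 ± 32.8 in siErk3 BSA, and Kif1b, a sister motor of Kif1a, at 290 ± 5.91 and 294 ± 11.9. In PA within siMk5, 3 of the 23 rose and 6 fell, beside 15.1% and 14.6% of all tested genes, among them Dclk2 at 1.20, the stathmin Stmn1 at -1.22 and Dclk1 at -0.49.

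Of 7 tested two-pore potassium channels other than Kcnk2, 0 were called between siRNAs by edgeR or DESeq2, with 0 to 2 at an unadjusted p below 0.05. In siNtc BSA, Kcnk5 was at 5.95 CPM and Kcnk13 at 8.13. Kcnk4, Kcnk6, Kcnk7, Kcnk10 and Kcnk12 were at only 0.028 to 0.63 CPM there, which limits what could be called. With PA in siMk5 one rose, Kcnk5 at a log2 fold change of 1.17, and one fell, Kcnk13 at -1.37. The 20 tested genes around Lgr receptors, R-spondins and Wnt targets held a single call between siRNAs, the secreted Dkk3 in siErk3 against siNtc in PA at -0.65 ± 0.16 (SE, FDR 0.0316, edgeR). PA lowered 8 of the 20 in siMk5, beside 14.6% of all tested genes, and raised 1, Rspo1. Lgr5, the stem cell marker and relative of Lgr6, fell by 3.02 on the log2 scale there, Lgr4 fell by 0.60, and the Wnt target Axin2 fell by 0.79. Of 7 Gata relatives and cofactors 0 were called between siRNAs by edgeR or DESeq2, and 0 to 2 had an unadjusted p below 0.05. Gata2, a factor of blood progenitors, was at 22.9 ± 2.28 CPM (SD, n = 3) in siNtc BSA and 23.7 ± 0.983 in siErk3 BSA, and it rose with PA in siMk5 by 0.58 on the log2 scale while Zfpm1 and Trps1 fell.

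Of the Cd28 and B7 family, 7 genes were tested, 0 were called against siNtc by edgeR or DESeq2, and 1 in each comparison had an unadjusted p below 0.05. Icosl, Vtcn1, Cd274 and Btla were at only 0 to 0.47 CPM in siNtc BSA, which limits what could be called in BSA. Cd274, the ligand PD-L1, was higher in siErk3 than in siMk5 in PA, at 0.68 ± 0.15 (SE, FDR 0.00623). Cd80, a ligand of Cd28, stood at 62.8 ± 4.99 CPM (SD, n = 3) in siNtc BSA and rose with PA in siMk5 by 0.54, and Cd86, its other ligand, had no read in any library. Among 28 tested imprinted genes other than Zdbf2, Grb10, an adaptor that restrains insulin signaling, was called higher in siErk3 BSA at 1.46 ± 0.28 (SE, FDR 0.00313), and no other member of that list was called against siNtc by edgeR or DESeq2. Its level was low, 2.04 ± 0.162 CPM (SD, n = 3) against 0.736 ± 0.0296. In siMk5, PA lowered 11 of the 28 and raised 3, where 14.6% and 15.1% of all tested genes were lowered and raised.

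Since several of the 7 are known from neurons or T cells, markers of those cells were counted. The 10 tested neuron markers summed to 5.10 to 6.23 CPM in siErk3 BSA and 6.10 to 7.88 in siNtc BSA, Syt1 and Gad1 had no read in any library, and 0 were called between siRNAs by edgeR or DESeq2, with 2 at an unadjusted p below 0.05 in siErk3 BSA against siNtc and 0 elsewhere. The 10 tested T cell markers summed to 8.83 to 10.5 CPM in siErk3 BSA and 8.94 to 10.6 in siNtc BSA, and Cd8a, Cd8b1, Cd5 and Il7r had no read in any library. One of them, Cd3g, a chain of the T cell receptor complex, was called higher in siErk3, by 1.71 ± 0.30 in BSA (SE, FDR 0.000871) and 1.47 ± 0.33 in PA (FDR 0.0189), from 0.546 ± 0.258 to 1.66 ± 0.489 CPM (SD, n = 3) in BSA. Over the 10, the median log2 fold change against siNtc was -0.27 in siErk3 BSA, with 4 above 0 and 6 below. In siErk3 PA it was 0.23, with 7 above 0 and 3 below. The 22 myotube markers were all present and summed to 20334 to 22816 CPM in siErk3 BSA against 21153 to 21629 in siNtc BSA. In siErk3 BSA 4 of them were called higher than in siNtc, Myh3, Myh7, Myh8 and Actn2, beside 0.588% of tested genes. In siErk3 PA 3 were, beside 0.432%. The 22 did not move together. Their median log2 fold change was -0.03 in siErk3 BSA, with 9 above 0 and 13 below, and 14 had an unadjusted p (edgeR) below 0.05. In siErk3 PA it was 0.03, with 12 above 0 and 10 below, and 11 had such a p. In siMk5 BSA Myh7 was called higher and Mb lower, beside 0.0138% and 0.0505%, and in siMk5 PA 1 marker was called lower, beside 0.491%. In siErk3 against siMk5, 1 marker was called higher in BSA and 1 in PA, beside 0.482% and 0.854%. The 17 tested markers of myoblasts and reserve cells, the unfused cells of such a culture, had 0 calls between siRNAs by edgeR or DESeq2 and 0 to 6 genes with an unadjusted p below 0.05. PA within siMk5 lowered 10 of them, Pax7 by 1.07 and Myod1 by 0.76 on the log2 scale, and brought their sum from 1573 to 1621 down to 1021 to 1024 CPM, along with 6 of the 22 myotube markers, beside 14.6% of all tested genes. The part of these markers in the PA values of the 7 genes was not tested.

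The nearest tested gene on each side of each of the 7, 14 in all, held 0 calls in the comparisons of siErk3 or siMk5 with siNtc by edgeR or DESeq2, and 0 to 1 had an unadjusted p below 0.05. They lay 3221 to 814594 bp away, and genes that overlap one of the 7 were left out. Cmklr2, Gm38122, Agxt, Gm13217 and Gm37198 averaged only 0.027 to 0.094 CPM. Their log2 fold changes in siErk3 BSA had SEs of 0.94 to 1.84, so a change in them could hardly be called. In PA some neighbors did change. Ptprv, 3221 bp from Lgr6, fell, with log2 fold changes of -1.28, -1.3045 and -1.36 in siNtc, siErk3 and siMk5, and so did Capn6, next to Dcx, at -0.65, -0.75 and -0.81. Gpr35, beside Kif1a, rose by 0.98, 0.57 and 0.70. In siMk5, 3 of the 14 neighbors rose and 3 fell, beside the 15.1% and 14.6% of all tested genes.

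Across the 18 libraries, Kcnk2, Kif1a and Gata3 followed one another closely. Pearson's r on log2 CPM was 0.975 for Kcnk2 and Gata3, 0.965 for Kcnk2 and Kif1a and 0.960 for Kif1a and Gata3, and Lgr6 ran opposite to them with r from -0.947 to -0.915. Dcx and Zdbf2 had an r of 0.830, and Zdbf2 and Cd28 -0.716. These describe points that share the medium and the siRNA, which set most of the spread, and libraries that share their depth across genes. Out of 12713 genes with a mean of at least 1 CPM, the most similar to Dcx were Atp6v1c2 (r = 0.967) and Frem2 (0.950), to Zdbf2 Basp1 (0.881), and to Cd28 Pip4k2b (0.913) and Aldh3b3 (0.853). For Kcnk2 they were Smyd5 (0.989) and Cdt1 (0.986), for Kif1a Pikfyve (0.982) and Slc35c1 (0.981), for Gata3 Iqgap1 (0.985) and Pes1 (0.980), and for Lgr6 Grhl3 (0.963) and Tcea3 (0.960).

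The 18S share differed between groups, so the fit was repeated with its logarithm as a term, an alternative chosen after seeing the data. In siErk3 against siNtc in BSA, Dcx went from 1.70 to 1.34 and Lgr6 from -0.61 to -0.13, while Gata3 (0.46), Kif1a (0.31), Cd28 (-1.32), Zdbf2 (1.29) and Kcnk2 (0.51) stayed within 1 SE of their values, and 2 of the 7 met the criteria. In siErk3 against siMk5 in BSA, Dcx went from 1.04 to 0.36 and Lgr6 turned from -0.25 to 0.61, with SEs of 0.22 and 0.26. Between siMk5 and siNtc in BSA, Dcx then met the criteria at 0.98 ± 0.16. The PA values of siErk3 moved little, Dcx to 1.63 and Cd28 to -0.63. Because the 18S share of siMk5 BSA overlapped with no other group, its part and that of the siRNA cannot be told apart there.

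**Figure D5:**
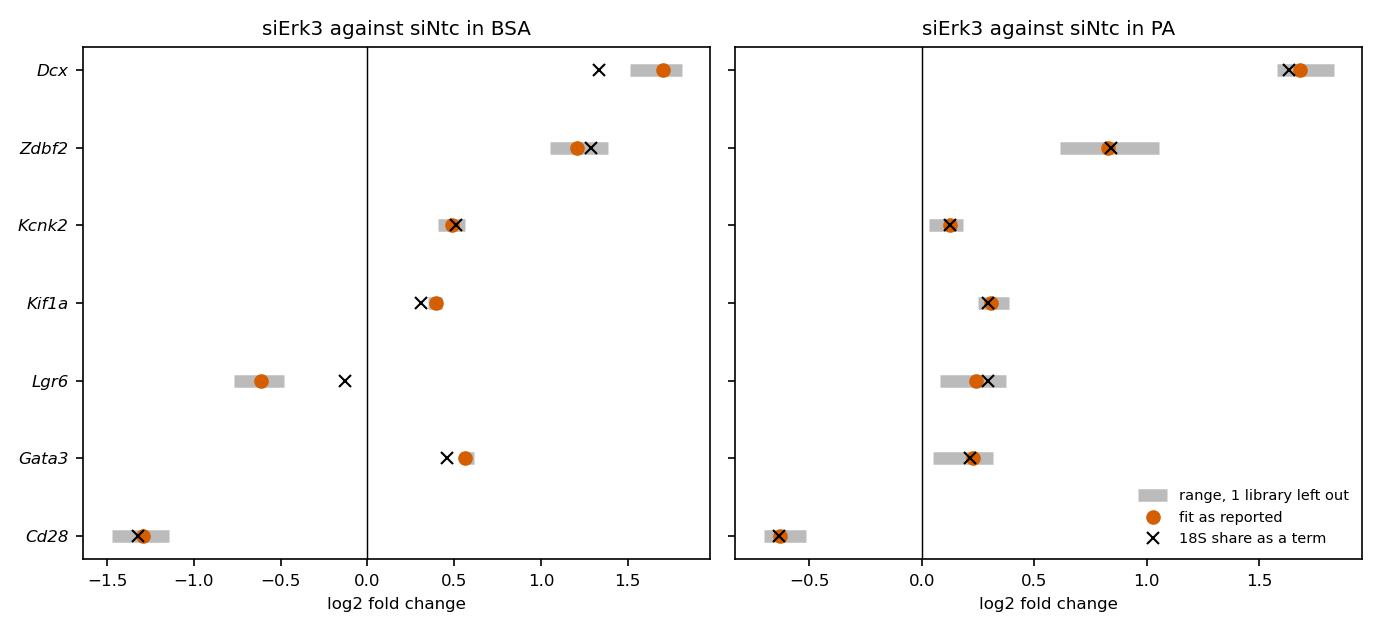
Log2 fold change of siErk3 against siNtc (x axis) in BSA (left) and PA (right) for the 7 genes, as reported (circles), over the fits with 1 library left out (gray bars) and with the 18S share as a term (crosses). In BSA the crosses of Lgr6 (-0.13), Dcx (1.34), Gata3 (0.46) and Kif1a (0.31) lie outside the gray bars and the other 3 within them, and in PA the crosses of all 7 lie within them.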

How the data were processed

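RNA of 18 libraries was sequenced as stranded read pairs. The authors deposited unnormalized counts of read pairs per gene, made, per the file headers, with featureCounts 2.0.0 on Ensembl annotation 105, counting primary alignments of mapping quality 3 or more in the reverse-stranded mode (setting 2). The header names a GRCm39 annotation while the labels name mm10, and the coordinates match GRCm39. Pairs that overlap exons of several genes on one strand stay unassigned, which lowers such genes. The second deposited table, of log2 values, was not used, and the count table held 0 columns of other samples.

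The 7 genes and all gene lists were chosen with earlier results of these data known. Counts were fitted with edgeR 4.0.16 in R 4.3.3 on the 21772 genes, out of 55414, whose counts summed to 10 or more, with TMM, 1 coefficient per group and quasi-likelihood tests. A gene was called at an FDR (Benjamini-Hochberg over all tested genes) below 0.05 and a fold change above 1.3, the criteria of the study. CPM are TMM-normalized, and those per kilobase use the exon length in the table. Total counts of 13041979 to 28496727 leave the most counting error in Zdbf2. Counts were also low in PA for Lgr6, at 22 to 58 read pairs per library, and for Dcx in siNtc, at 34 to 46. Groups and replicate numbers come from the labels. Tests of siMk5 against siNtc and of the interaction had been planned for the 7 genes and are given as descriptions instead, since the siNtc libraries took part in the choice. An exact permutation test of 3 against 3 libraries cannot go below 0.1 and was not used. No library was a copy of another. Named genes are the 7, the silenced genes, called or related list members, the nearest tested neighbors and the 2 genes most like each by Pearson's r on log2 CPM with a prior count of 2, of which 1 is not reported here. The fit was first tested on simulated counts. Alternatives were DESeq2 1.42.0 (the tool of the study, there in another version), its size factors, 2 other filters, the replicate number as a block, only the groups compared, the FDR alone, each library left out and, added after seeing the data, the 18S share as a term. Figures were drawn with matplotlib 3.10.9 in Python 3.11.15.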

Additional observations from a re-analysis of the deposited data

How the results depend on the processing

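Among the palmitic acid calls of the 7 genes, those of Kcnk2, Kif1a, Gata3, Dcx and Lgr6 held under every alternative run, which in siNtc and siErk3 is a description only. The number of the 7 that met the criteria was 3 to 4 with 1 library left out in siErk3 against siNtc in BSA, 1 to 2 in PA, and 1 to 2 in siErk3 against siMk5 in BSA. Counts over all tested genes ranged, with 1 library left out, from 113 to 144 in siErk3 against siNtc in BSA, from 6 to 25 in siMk5 against siNtc in BSA and from 22 to 67 in the interaction. With every gene that has a count kept, 4 of the 7 met the criteria in siErk3 against siMk5 in BSA, 2 in siMk5 against siNtc in BSA and 1 in the interaction, and all-gene counts were 208 in siErk3 against siNtc in PA, 201 in siErk3 against siMk5 in BSA, 61 in siMk5 against siNtc in BSA and 130 in the interaction. The other lists held 1 call in siMk5 against siNtc in BSA both there and with filterByExpr. With the 18S share as a term, 2 of the 7 met the criteria in siErk3 against siNtc in BSA, 0 in siErk3 against siMk5 in BSA and 1 in siMk5 against siNtc in BSA, with 111, 78 and, in the interaction, 0 genes over all, and the other lists held 3 calls in siErk3 BSA. Zdbf2 no longer met the criteria for palmitic acid there, at -0.81 in siErk3, a description only, and at -0.74 (FDR 0.171, edgeR) in siMk5. With the FDR alone, 263 genes passed in siErk3 BSA and 186 in siErk3 PA, and the other lists held 9 calls in siErk3 PA and 4 in siMk5 PA. With only the groups compared, 1 of the 7 and 71 genes passed in siErk3 PA. DESeq2 called 10 interferon-stimulated genes in siErk3 PA, against 17. The cause of these shifts was not tested.

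Values near 0 that did not meet the criteria changed sign with 1 library left out. Kcnk2 ranged from -0.0112 to 0.140 in siMk5 BSA, from -0.0066 to 0.0993 in siMk5 PA and from -0.0958 to 0.0549 in the interaction, where 2 other fits gave 0.0060 and 0.0279. Dcx ranged from -0.250 to 0.0513 in the interaction, Cd28 from -0.0702 to 0.258 for palmitic acid in siErk3 and Zdbf2 from -0.413 to 0.0283 in siMk5 PA. Replicate numbers were not taken to pair the libraries. Over 45 same-numbered pairs the correlation of deviations averaged -0.00417 (range -0.665 to 0.579). For numbers 1, 2 and 3 it was 0.579, 0.0386 and 0.483 between siErk3 PA and siMk5 PA. Between siNtc PA and siErk3 PA it was -0.659, 0.00228 and -0.665. Differently numbered pairs were not compared, so shared handling of PA libraries was not tested. With the replicate number as a block, 6 of the 7 met the criteria in siErk3 BSA and 18 genes were called in siMk5 BSA, against 14, and none of the 7 changed its side of the criteria in Mk5 silencing, palmitic acid or their interaction.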
